A study of Mus musculus with 16 samples.

Results

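A set of 9 genes that mark or govern hair follicle stem cells was followed in whole mouse dorsal skin after repeated UVB. They are *Lgr5*, *Lgr6*, *Lrig1*, *Cd34*, *Lhx2*, *Sox9*, *Nfatc1*, *Fgf18* and *Gli1*, and were chosen by name with earlier results of these data known. Counts of them beside the shares of all genes are therefore a description. All 9 were found among the 55359 genes in the deposited tables and passed the filter on low counts in every comparison. The study asked how the skin of males and females responds to UVB. RNA was sequenced from 16 WT C57Bl/6 mice (C57Bl/6N in the study's text) aged 8 weeks, 4 in each of the groups no-UVB males, UVB males, no-UVB females and UVB females, and the skin of every mouse was labelled telogen. UVB mice had been irradiated on shaved dorsal skin 3 times, on every other day, and their skin was collected 6 h after the third exposure; the sources used here do not say whether no-UVB mice were shaved too. No transgene, Cre or drug was given in any group. Levels are given as CPM, the reads of a gene scaled to the size of its library and corrected between libraries by TMM. A gene is said to have risen or fallen when its Benjamini-Hochberg adjusted *p* from the quasi-likelihood test of edgeR, over all genes tested, was under 0.1.

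The hair follicle keeps its stem cells in the bulge, below the sebaceous gland, and in a small hair germ beneath it. In telogen these cells rest, and new growth (anagen) starts when Wnt and Hedgehog signals outweigh BMP and FGF18 signals that hold them quiet. *Lgr5* and *Lgr6* encode related receptors for R-spondins, secreted proteins that strengthen Wnt signalling, and mark cells of the lower bulge and germ and of the isthmus, respectively. *Lrig1*, a transmembrane inhibitor of receptor tyrosine kinases, marks the junctional zone above the bulge. *Cd34* encodes a surface sialomucin of bulge cells in the mouse, and blood vessels and dermal fibroblasts express it too. The transcription factors *Lhx2*, *Sox9* and *Nfatc1* maintain the bulge, *Nfatc1* downstream of BMP and calcineurin, *Fgf18* is the growth factor that prolongs telogen, and *Gli1* is both an effector and a target of Hedgehog signalling. Whole skin mixes these cells with epidermis, dermis and vessels, so that fewer cells of a type and less RNA per cell cannot be told apart.

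On the GRCm39 build all 9 are protein-coding genes. *Lgr5* lies on chromosome 10 (115286216 to 115423685, minus strand), as does *Gli1* (127165751 to 127177865, minus). *Lgr6* (134911039 to 135033100, minus) and *Cd34* (194621029 to 194647172, plus) lie on chromosome 1, and *Sox9* (112673009 to 112678586, plus) and *Fgf18* (33067014 to 33097828, minus) on chromosome 11. *Lrig1* lies on chromosome 6 (94581510 to 94677242, minus) and *Lhx2* on chromosome 2 (38229293 to 38259759, plus). Each of them apart from *Fgf18* overlaps an annotated gene on the other strand, which the strand-specific counts used here keep apart.

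RefSeq promoter windows of 250 bases before the start were given for 5 of the 9 genes, *Lgr6*, *Lrig1*, *Cd34*, *Lhx2* and *Fgf18*, as 6 windows in all, and were placed on GRCm39 by exact match. The RefSeq start lies inside the annotated gene by 86 bases in *Lgr6*, 116 in *Lrig1*, 100 in *Cd34* and 428 in *Fgf18*, so that the *Fgf18* window is wholly within its gene. They differ in their number of CpG dinucleotides, the sites of DNA methylation, and *Cd34* has the fewest. It holds 6 CpG dinucleotides at 46.4% G and C, against 16 at 65.2% in *Lgr6*, 26 at 71.6% in *Lrig1*, 25 at 72.8% in *Lhx2* and 37 at 77.2% in *Fgf18*, where the median of 32851 RefSeq windows (build GRCm38.p6) is 6 at 52.4%. The 150 bases directly before the annotated gene start are shown for 3 of them, 5′ to 3′ on the gene's strand with each CpG in capitals, so that the contrast can be seen.
*Cd34* (chr1:194620879-194621028, plus strand): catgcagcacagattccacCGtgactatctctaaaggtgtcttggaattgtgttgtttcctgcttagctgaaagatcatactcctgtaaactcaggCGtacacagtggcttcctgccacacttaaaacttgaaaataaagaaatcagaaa
*Lgr6* (chr1:135033101-135033250, minus strand): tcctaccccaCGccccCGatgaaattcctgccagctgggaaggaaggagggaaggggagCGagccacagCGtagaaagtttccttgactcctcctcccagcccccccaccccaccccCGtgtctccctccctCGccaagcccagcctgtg
*Lhx2* (chr2:38229143-38229292, plus strand): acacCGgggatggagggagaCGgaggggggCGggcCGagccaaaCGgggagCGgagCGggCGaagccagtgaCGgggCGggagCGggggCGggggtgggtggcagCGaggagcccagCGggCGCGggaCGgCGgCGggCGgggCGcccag
These stretches hold 2, 6 and 21 CpG dinucleotides. A set of 3 short motifs was searched on both strands of the 250 bases. The SOX motif AACAATG was found in *Lgr6* alone, 63 to 57 bases before the RefSeq start, which is after the annotated start and outside the stretch shown, and is in 3.29% of all windows. The GLI motif GACCACCCA (0.225% of all windows) and the AP-1 motif TGANTCA (6.75%) have no match in the 6 windows.

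Reads on genes numbered 16495776 to 33404831 per mouse, so that the least abundant member, *Fgf18*, rested on 77 to 399 reads in a mouse and *Cd34* on 4706 to 14837. A pair of libraries went against the telogen label. No-UVB males 3 and 4 had 21.1 and 39.9 CPM of *Krt71*, a keratin of the inner root sheath that only a growing follicle makes, where no-UVB males 1 and 2 had 0.14 and 0.23 and none of the other 12 mice was above 1.75. *Krt25* (10.3 and 21.4 CPM against at most 0.36 elsewhere) and *Krt27* (6.97 and 13.8 against at most 0.978), 2 further inner root sheath keratins, did the same. The summed level of 14 anagen matrix and shaft genes was 128 and 178 CPM in these mice, 34.8 and 42.7 in the other no-UVB males, 55.8 to 61.8 in UVB males and 37.4 to 63.8 in females. Results for the 9 genes in males are therefore given with all mice and also without this pair, an alternative chosen after the data were seen, as are the counts of the pathway lists.

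**Figure D1:**
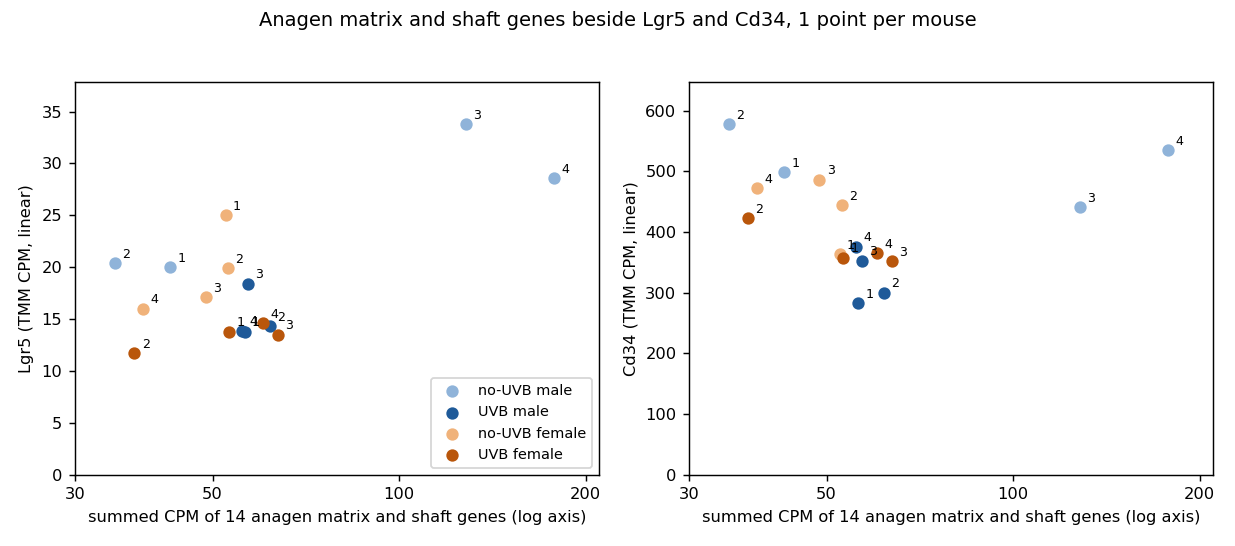
Summed CPM of 14 anagen matrix and shaft genes (x axis, log scale) against *Lgr5* (left) and *Cd34* (right) in CPM on linear axes from 0, with 1 numbered point per mouse coloured by group. No-UVB males 3 and 4 stand alone at 128 and 178 CPM on the x axis and hold the highest *Lgr5* levels, 33.8 and 28.6 CPM, while their *Cd34* lies within the range of the other no-UVB males or just below it.

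In males, with all mice, 8 of the 9 genes fell after UVB and none rose. Of all 16535 genes tested in males, 30.5% fell and 29% rose by the same rule. The largest falls were in *Lgr5*, *Fgf18*, *Cd34* and *Lhx2*, which kept 58.8%, 64%, 63.9% and 64.5% of their no-UVB means, and no fall passed 1 on the log2 scale, which 3.31% of all genes did. *Sox9* was the exception, at 125% of the no-UVB mean and not past the threshold. In 5 genes, *Lgr5*, *Lrig1*, *Cd34*, *Lhx2* and *Nfatc1*, every UVB male was below every no-UVB male, as was the case for 24.3% of all genes tested. The median log2 fold change was -0.39 over the 9 genes and -0.02 over all genes. The count of falls and the first place of *Lgr5* rest on the pair of no-UVB males with inner root sheath keratins. Without that pair 5 of the 9 genes fell and *Sox9* rose (0.63, adjusted *p* = 0.00807). *Lgr5* then had -0.38, a smaller fall than *Cd34* (-0.67), *Fgf18* (-0.66) and *Lhx2* (-0.61).

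Females gave the same direction for fewer genes past the threshold. *Lgr5*, *Lgr6*, *Fgf18* and *Gli1* fell and the other 5 genes did not pass, where 10.6% of the 16883 genes tested fell. In these same 4 genes no UVB female overlapped a no-UVB female, against 10.1% of all genes. All 9 fold changes were below 0, with a median of -0.50 against 0.00 over all genes. *Fgf18* alone passed 1 on the log2 scale (1.08% of all genes fell that far). At an unadjusted *p* under 0.05, 8 of the 9 genes passed in males and 6 in females (57.9% and 30.3% of all genes). None of them was a rise, which 12.8% of all genes showed in females by the adjusted test, and DESeq2 called 1 rise in males (*Sox9*) and 0 in females.

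**Figure D2:**
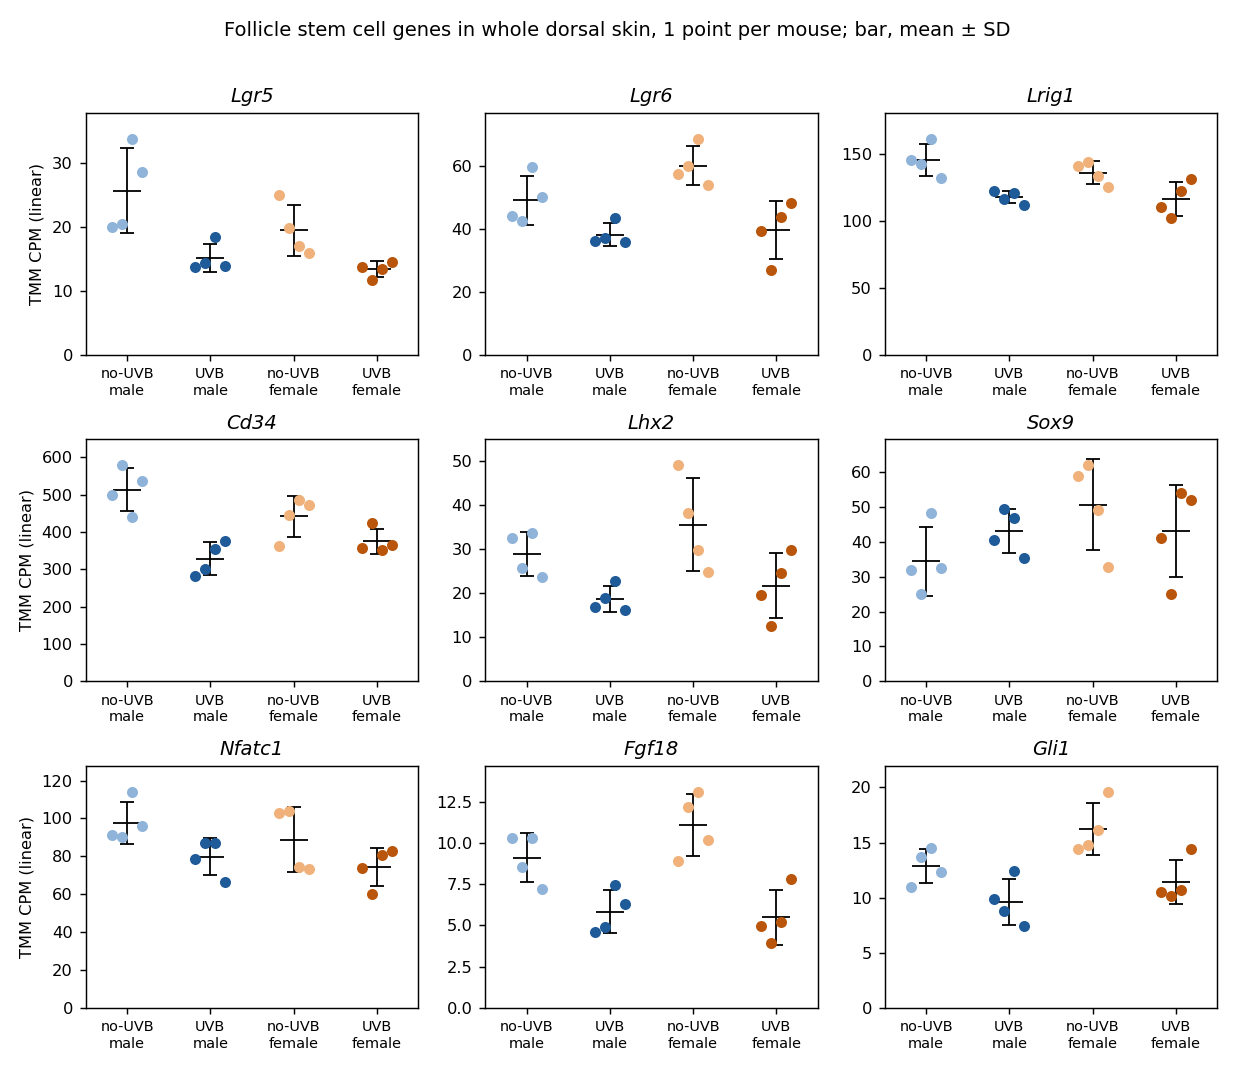
CPM of each of the 9 genes (linear axes from 0) in the 16 mice, 1 point per mouse in replicate order, with the mean and SD of each group of 4 as bars. Every UVB mouse sits lower than the no-UVB mice of its sex for *Lgr5*, and for *Fgf18* all but UVB male 3 do (7.44 CPM against 7.22 in no-UVB male 4), while *Sox9* overlaps in both sexes.

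*Lgr5* and *Lgr6* fell in both sexes with all mice, and the *Lgr6* call in males rests on no-UVB males 3 and 4. *Lgr5* was at 20, 20.4, 33.8 and 28.6 CPM in no-UVB males and 13.8, 14.3, 18.4 and 13.9 in UVB males. It was at 25, 19.9, 17.1 and 16 in no-UVB females and 13.8, 11.7, 13.5 and 14.6 in UVB females. The 8 UVB mice thus spanned a narrower range than the 8 no-UVB mice, and no group overlapped its control. The log2 fold change was -0.75 (standard error 0.182, adjusted *p* = 0.00672) in males and -0.54 (0.139, 0.0268) in females. Without no-UVB males 3 and 4, which have the inner root sheath keratins and the highest *Lgr5*, the male value was -0.38 (adjusted *p* = 0.0289).

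*Lgr6* was at 44.1, 42.4, 59.6 and 50.3 CPM in no-UVB males and 36.2, 37, 43.6 and 35.7 in UVB males, where the highest UVB male lay above the lowest no-UVB male. In females it was at 57.6, 60.1, 68.6 and 54.1 without UVB and 39.3, 26.8, 43.8 and 48.2 with it, without overlap. The log2 fold changes were -0.34 (0.111, adjusted *p* = 0.0227) in males and -0.60 (0.159, 0.0313) in females. Without no-UVB males 3 and 4 the call in males was lost (-0.14, adjusted *p* = 0.231), and without male 3 alone the value was -0.22 (0.0634). Their close relative *Lgr4*, the R-spondin receptor of the wider epidermis, was named for that kinship after its values were seen. It had 60.7 to 68.7 CPM in no-UVB males and 47.2 to 61.6 in UVB males, with a log2 fold change of -0.22 (adjusted *p* = 0.0469) in males and -0.19 (0.362) in females. Leaving out UVB male 2 or 4 or no-UVB male 2 or 3 ended the call in males (adjusted *p* up to 0.123), as did the fit of all 16 mice (0.103).

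*Lrig1* was steady from mouse to mouse. No-UVB males had 145, 142, 161 and 132 CPM and UVB males 122, 116, 121 and 112. No-UVB females had 141, 144, 133 and 125 CPM and UVB females 110, 102, 122 and 131. The fall was small but clear of the spread in males, at -0.28 (standard error 0.0676, adjusted *p* = 0.00511), and was -0.24 (0.0114) without no-UVB males 3 and 4. In females the highest UVB mouse overlapped the controls and the value of -0.21 (0.0897, adjusted *p* = 0.138) did not pass, though it did with upper quartile scaling (0.081), with all 16 mice in 1 fit (0.0583) and without UVB female 4 (-0.27, 0.0859). *Lrig2*, a family member, rose in males by 0.25 (adjusted *p* = 0.0497), a call lost without UVB male 1 or 4 or no-UVB male 1, 2 or 4 (adjusted *p* up to 0.151) and under upper quartile scaling (0.17, 0.167), and *Lrig3*, named after its values were seen, had 0.10 (0.391) in males.

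*Cd34*, the most abundant of the 9, was at 499, 578, 441 and 535 CPM in no-UVB males and 283, 300, 353 and 376 in UVB males. In females it was at 363, 444, 486 and 472 without UVB and 358, 423, 352 and 365 with it. Males separated fully, whereas in females 3 of the 4 UVB mice lay at the level of the lowest control. The log2 fold change was -0.62 (0.106, adjusted *p* = 0.000525) in males, the smallest adjusted *p* of the 9 genes, and -0.23 (0.113, 0.205) in females, where it passed only without no-UVB female 1 (-0.31, 0.0693). Without no-UVB males 3 and 4 it was -0.67 (0.0011). Beside it, 9 of 10 fibroblast markers fell in males (summed level 52000 to 57300 CPM without UVB, 21000 to 27900 with it) and 5 of 10 did without no-UVB males 3 and 4, with a median log2 fold change of -0.49 against -0.57 with all mice. In females 1 of 10 fell and 1 rose (14900 to 15800 and 10200 to 17700 CPM). *Col1a1*, the main collagen gene of the dermis, fell by 1.66 on the log2 scale in males (adjusted *p* = 8.37e-06), as did the collagen *Col3a1* by 0.96 (9.60e-05). In females the receptor *Pdgfra* fell by 0.37 (0.0903), a call lost in 5 of 8 fits with 1 mouse left out (without UVB female 1, 3 or 4 or no-UVB female 3 or 4, adjusted *p* up to 0.207), and the proteoglycan *Lum* rose by 0.43 (0.0246). None of 11 endothelial markers passed in either sex in edgeR or DESeq2, at an unadjusted *p* under 0.05 the counts were 0 in males and 1 in females, and 1 fell in males without no-UVB males 3 and 4. Their sum spanned 621 to 722 CPM in no-UVB and 618 to 771 in UVB males. The part of either cell type in the *Cd34* values was not tested.

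The transcription factors of the bulge differed among themselves. *Lhx2* was at 32.6, 25.7, 33.7 and 23.6 CPM in no-UVB males and 16.8, 19, 22.8 and 16.1 in UVB males, without overlap. Females spread more widely, with 49, 38.3, 29.9 and 24.9 without UVB and 19.6, 12.6, 24.6 and 29.9 with it. The log2 fold change was -0.62 (0.144, adjusted *p* = 0.00464) in males, and -0.61 (0.00848) without no-UVB males 3 and 4. In females it was as large, -0.71, but with a standard error of 0.268 and an adjusted *p* of 0.105 it stayed just outside the threshold, and DESeq2 called it (0.0388). It also passed without UVB female 4 (-0.90, adjusted *p* = 0.0782) or no-UVB female 4 (-0.85, 0.0976).

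*Nfatc1*, on chromosome 18 (80649266 to 80756295, minus strand), was at 91, 90.1, 114 and 96 CPM in no-UVB males and 78.3, 87.1, 87.2 and 66.4 in UVB males. It was at 103, 104, 74.5 and 73.4 in no-UVB females, which split into a high and a low pair, and 73.6, 60.1, 80.9 and 82.7 in UVB females. The male fall of -0.27 (0.103, adjusted *p* = 0.0446) left little margin between the groups and was -0.14 (0.292) without no-UVB males 3 and 4. It was also lost when UVB male 1 (-0.26, adjusted *p* = 0.1), UVB male 4 (-0.19, 0.102) or no-UVB male 3 alone (-0.17, 0.136) was left out. The female value was -0.25 (0.143, 0.273).

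*Sox9* was the only member higher after UVB on average in males. Levels were 32, 25, 48.3 and 32.5 CPM in no-UVB males and 40.5, 49.5, 46.9 and 35.5 in UVB males, where no-UVB male 3 sat among the UVB mice. In females they were 58.9, 62, 49.1 and 32.9 without UVB and 41.1, 25.1, 54.1 and 52.2 with it, a spread wider than the difference of the means. The log2 fold changes were 0.34 (0.196, adjusted *p* = 0.177) and -0.23 (0.251, 0.58). The male value rests on the controls used. It passed the threshold as a rise without no-UVB males 3 and 4 (0.63, adjusted *p* = 0.00807), without no-UVB male 3 alone (0.57, 0.00576) and in DESeq2 with all mice (0.35, 0.0981).

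The telogen factor *Fgf18* had the largest fall of the 9 genes in females. It was at 10.3, 8.56, 10.3 and 7.22 CPM in no-UVB males and 4.61, 4.91, 7.44 and 6.31 in UVB males. Without UVB the females had 8.92, 12.2, 13.1 and 10.2 CPM, and with it 4.94, 3.93, 5.23 and 7.81, so that UVB females kept 49.4% of the control mean. The log2 fold change was -0.63 (0.172, adjusted *p* = 0.00917) in males, where a single UVB mouse overlapped the lowest control, and -1.02 (0.202, 0.00853) in females. It was -0.66 (0.0161) in males without no-UVB males 3 and 4. The female value ranged from -1.23 to -0.89 when 1 mouse was left out, all past the adjusted threshold, and no longer passed 1 without UVB female 1, 2 or 3 or no-UVB female 2 or 3.

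*Gli1*, the Hedgehog effector, was at 11, 13.7, 14.5 and 12.3 CPM in no-UVB males and 9.9, 8.74, 12.4 and 7.46 in UVB males. Females had 14.4, 14.8, 16.1 and 19.6 without UVB and 10.5, 10.1, 10.7 and 14.4 with it, the highest UVB female just under the lowest control. It fell by 0.50 on the log2 scale in females (0.14, adjusted *p* = 0.0373). The male value of -0.39 (0.15, 0.0459) was past the threshold with all mice but not without no-UVB males 3 and 4 (-0.31, 0.193), nor when UVB male 2 (-0.35, adjusted *p* = 0.107), UVB male 4 (-0.28, 0.114), no-UVB male 2 (-0.35, 0.107) or no-UVB male 3 (-0.31, 0.124) was left out.

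**Figure D3:**
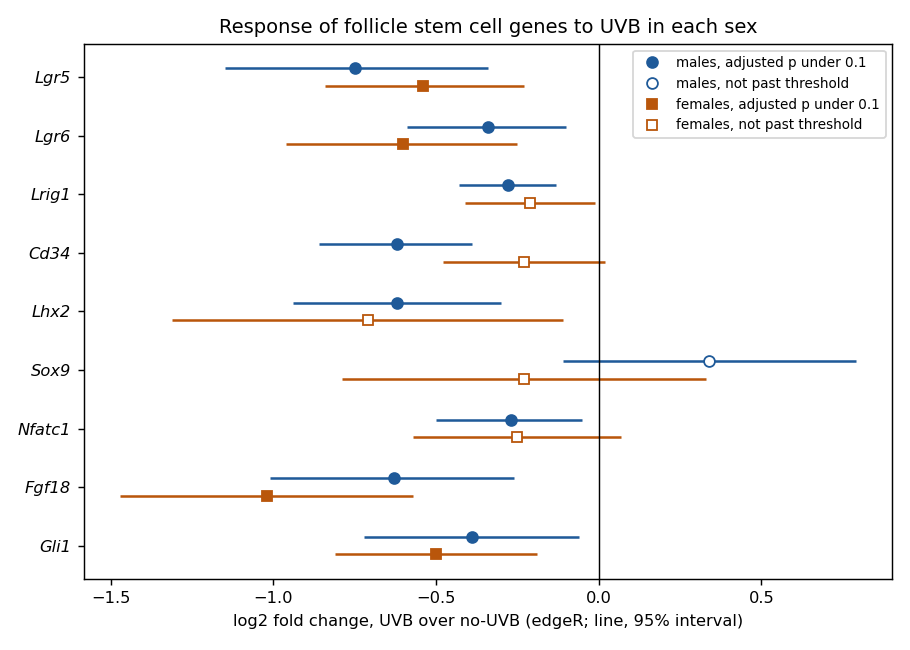
Log2 fold change of each gene, UVB over no-UVB, with its 95% interval, in males (circles) and females (squares); filled symbols passed an adjusted *p* of 0.1 in edgeR. All points but *Sox9* in males (0.34) lie below 0, and the intervals of the sexes overlap for every gene.

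Without no-UVB males 3 and 4, 5 of the 9 genes still fell in males (*Lgr5*, *Lrig1*, *Cd34*, *Lhx2* and *Fgf18*) and *Sox9* rose, where 27.1% of 17083 genes fell and 28.9% rose. Of 4 markers of basal keratinocytes 2 rose in males (3 without no-UVB males 3 and 4, and 3 in DESeq2 with all mice) and 1 in females. *Krt14*, the keratin of basal cells, rose in males by 1.43 (adjusted *p* = 0.000645) and the sum of the 4 went from 3700 to 6120 CPM without UVB to 6910 to 10200 with it. In females *Krt14* rose by 0.47 (0.0801), a call lost without UVB female 1, 3 or 4 or no-UVB female 2 or 4 (0.33 to 0.53, adjusted *p* up to 0.195), and the basal sums overlapped (3130 to 4690 and 3540 to 5220). *Itgb4* rose in males by 0.38 (0.00159). The suprabasal keratins *Krt1* (3.13, adjusted *p* = 3.03e-05, in males and 1.99, 0.0011, in females) and *Krt10* (1.24, 3.92e-05, and 0.62, 0.0337) rose in both sexes. Their part in the values of the 9 genes was not tested.

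Markers of other tissues in the sample moved in both directions beside the 9 genes. Their counts, here and in the paragraphs around, stand beside 30.5% of all genes falling and 29% rising in males. In females 10.6% of all genes fell and 12.8% rose. All 4 skeletal muscle markers fell in males, from a sum of 12700 to 17100 CPM to 7490 to 9490, with the myosin *Myh4* at -1.09 (adjusted *p* = 0.00166) and the creatine kinase *Ckm* at -0.77 (0.000165), and 0 of 4 passed in females, in DESeq2 and at an unadjusted *p* under 0.05 too. Of 4 adipocyte markers 2 fell in males, the lipid droplet protein *Plin1* (-0.62, 0.0283, and 0.127 in the fit of every gene with a count) and *Cfd* (-0.52, 0.00228), with 0 in females by the same 3 counts. Of 3 leukocyte markers 2 fell in both sexes, *Cd3e* of T cells (-0.84, 0.00233, in males and -0.50, 0.0456, in females, the latter lost without no-UVB female 2 at -0.44, 0.112) and the pan-leukocyte *Ptprc* (-0.37, 0.00496, and -0.46, 0.00502). These calls in males were kept without no-UVB males 3 and 4.

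Sebaceous gland and mast cell markers went up where they passed. Of 7 sebaceous gland markers 4 rose in males and 3 in females, among them *Elovl3* of fatty acid elongation (2.32, adjusted *p* = 3.54e-06, and 1.81, 0.00162), *Cidea* in males (0.48, 0.00178) and *Mgst1* in females (0.60, 0.00224). Of 4 mast cell markers 2 rose in males and 4 in females, among them the IgE receptor chain *Fcer1a* (1.05, 0.00474, and 1.48, 0.0142), the protease *Cpa3* in males (0.33, 0.0139) and the chymase *Cma1* in females (0.51, 0.0884, lost in 6 of the 8 fits with 1 mouse left out, 0.31 without UVB female 2). Of 8 melanocyte markers 3 rose and 3 fell in males (1 and 2 without no-UVB males 3 and 4), *Pmel* (0.87, 0.0183) and *Tyrp1* (0.63, 0.0312, and 0.41, 0.165, without no-UVB males 3 and 4) of the pigment granule among the former, and 1 fell in females, *Mitf* (-0.30, 0.0576, lost without UVB female 1, 3 or 4 with an adjusted *p* up to 0.129). The part of any of these tissues in the values of the 9 genes was not tested.

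Within the follicle, 1 of 5 tested dermal papilla markers fell and 1 rose in males, the retinoic acid binding protein *Crabp1* rising by 1.26 (adjusted *p* = 5.53e-06) and *Prom1* falling by 0.49 (0.00807), and 0 of 6 passed in females, with 0 at an unadjusted *p* under 0.05 and 1 lower in DESeq2. Of 6 tested anagen genes 3 rose and 2 fell in males (3 and 0 without no-UVB males 3 and 4), with *Foxn1*, a hair differentiation factor, at 0.98 (0.0013) and the sheath protein *Tchh* at -1.24 (0.0854), which was 0.00 (0.999) without no-UVB males 3 and 4 and -0.99 (0.22) with a replicate block. The *Tchh* value ranged from -1.52 to -0.84 with 1 mouse left out and stayed past the threshold in 2 of 8 such fits. In females 2 rose and 1 fell, with the homeobox genes *Dlx3* at 0.77 (0.00869) and *Hoxc13* at -0.76 (0.04, and -0.67, 0.103, without UVB female 1).

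Whether the sexes responded differently was tested in a fit of all 16 mice. The difference of the responses, male minus female, passed the adjusted threshold for 0 of 9 genes in edgeR and in DESeq2, against 7% of the 17406 genes tested, and at an unadjusted *p* under 0.05 for 1, *Cd34* (20.8% of all genes). For *Cd34* it was -0.41 (95% interval -0.75 to -0.07, adjusted *p* = 0.159), a larger fall in males; without no-UVB male 3 it was past the threshold (-0.48, 0.094). For *Sox9* it was 0.56 (-0.20 to 1.31), for *Fgf18* 0.37 (-0.23 to 0.97) and for *Lhx2* 0.08 (-0.65 to 0.81). All 3 intervals hold 0 and are wider than the differences themselves. The narrowest interval was that of *Lrig1*, -0.32 to 0.16.

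The sexes were also compared at the same treatment. Without UVB, 0 of 9 genes differed (11.8% of all genes did), with 3 at an unadjusted *p* under 0.05 (22.2% of all genes) and none in DESeq2. *Lgr5* was higher in males by 0.40 (95% interval 0.04 to 0.75, adjusted *p* = 0.173), whereas *Sox9* (-0.56, -1.09 to -0.02, 0.205) and *Gli1* (-0.33, -0.65 to -0.02, 0.2) were higher in females. The *Lgr5* value was 0.05 (0.899) without no-UVB males 3 and 4 and passed the threshold without no-UVB female 1 (0.54, 0.0725), and that of *Sox9* did so without no-UVB female 4 (-0.73, 0.0903) or no-UVB male 3 (-0.77, 0.0835) but not without no-UVB males 3 and 4 together (-0.83, 0.139). After UVB, 0 of 9 differed in edgeR, none in DESeq2 and none at an unadjusted *p* under 0.05. Of all genes 25.2% did in edgeR and 32% at the unadjusted threshold, and the fitted differences lay between -0.24 (*Gli1*) and 0.17 (*Lgr5*).

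Per kilobase of exon, *Cd34* stood first in all 4 groups, with 42.9 ± 4.85 CPM per kb (SD over 4 mice) for no-UVB males and 36.9 ± 4.6 for no-UVB females, followed by *Lrig1* (22.8 ± 1.87 and 21.4 ± 1.4), with every mouse of the first above every mouse of the second. *Nfatc1* and *Sox9* came next. They were 12.8 ± 1.45 and 8.25 ± 2.36 CPM per kb in no-UVB males, without overlap, and 10.4 ± 1.29 and 10.3 ± 1.51 in UVB males, where they overlapped. In females the order was the reverse, with overlap. *Sox9* had 12.2 ± 3.13 and *Nfatc1* 11.6 ± 2.25 without UVB, and 10.3 ± 3.19 and 9.74 ± 1.34 with it. *Lgr6*, *Lhx2* and *Fgf18* followed in that order in every group. In no-UVB mice of both sexes *Lgr6* overlapped *Lhx2* and *Lhx2* overlapped *Fgf18*, while *Fgf18* stood apart from *Gli1*. *Gli1* and *Lgr5* were last, at 2.56 ± 0.306 and 2.5 ± 0.654 CPM per kb in no-UVB males, where they overlapped, and 3.23 ± 0.466 and 1.9 ± 0.393 in no-UVB females, where they did not. These are levels in whole skin, to which cells outside the follicle contribute for *Cd34* and others.

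Within the groups most of the genes went up and down together from mouse to mouse, with *Gli1* more weakly tied and *Cd34* apart. No-UVB male 3 had the highest level of 8 genes and the lowest of *Cd34*. UVB female 2 had the lowest level of the same 8 and the highest of *Cd34*. UVB male 3 was highest for 6 genes, UVB female 4 for 7, and UVB male 4 and no-UVB female 4 were lowest for 6 each. The basal keratinocyte sum was highest of its group in no-UVB male 3 (6120 CPM) and lowest in UVB female 2 (3540), no-UVB female 4 (3130) and UVB male 4 (6910), but not highest in UVB male 3 or UVB female 4, and UVB female 2 had the highest endothelial sum of all mice (908, where the other UVB females had 591 to 688). The library of UVB female 2 also had the lowest share of reads on genes (70.08%, where the others had 70.38 to 79.22%) and the highest unmapped share (16.36%). The part of tissue content or library quality in these deviations was not tested. Without UVB female 2 the same 4 genes were called in females. As a description, Pearson's *r* of the log2 CPM deviations from group means over the 16 mice was above 0 in 29 of the 36 pairs of genes, with a median of 0.49. It ranged from -0.71 (*Cd34* with *Nfatc1*) to 0.89 (*Sox9* with *Nfatc1*), and *Lrig1* and *Lhx2* had 0.87. *Gli1* had from 0.00 with *Cd34* and 0.13 with *Sox9* to 0.48 with *Lgr6*. *Fgf18* had 0.16 with *Lgr5* but 0.67 with *Lgr6*. Points share their library, its depth and its mix of tissue.

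**Figure D4:**
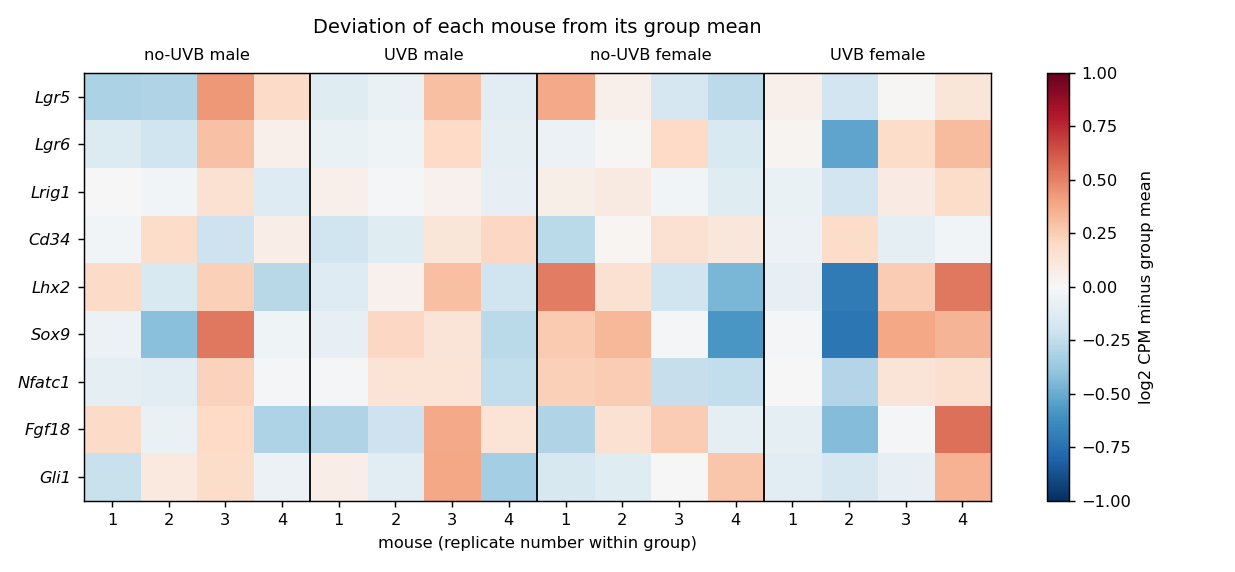
Deviation of log2 CPM from the group mean for the 9 genes (rows) in the 16 mice (columns, by group and replicate number), red above and blue below the mean. The columns of no-UVB male 3 and UVB female 2 are nearly of 1 colour, with *Cd34* in the opposite colour.

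Among 15116 genes of at least 1 CPM, those most like each member by the same measure over the 16 mice were *Foxc1* (0.94), a transcription factor of the bulge, and *Itgb4* (0.92), a hemidesmosome integrin, for *Lrig1*. For *Fgf18* they were *Rasgrf1* (0.94) and *Fgfr2* (0.87), a receptor of FGFs in keratinocytes. *Sox9* had *Ptk7* (0.97) and *Klc3* (0.96), *Lhx2* had *Cbarp* (0.95) and *Prag1* (0.94), and *Nfatc1* had *Lingo1* and *Mnt* (0.94 each). *Lgr6* had *Epb41l4b* (0.93) and *Fut1* (0.91), *Lgr5* had *Nudt22* (0.91) and *Cacnb3* (0.90), and *Cd34* had *Nek9* (0.95) and *Gnpat* (0.92). *Gli1* had the weakest likeness of the 9 to any gene, 0.81 with *Zfp526* and 0.80 with *Ankrd10*.

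The counts of the lists that follow, as of those above, are to be read against the shares of all genes. These were 30.5% falling and 29% rising in males and 10.6% and 12.8% in females. Of 15 other bulge markers, 5 fell and 3 rose in males (5 and 4 without no-UVB males 3 and 4), and 3 fell and none rose in females (none at an unadjusted *p* under 0.05 or by DESeq2). *Krt15*, the classical bulge keratin, was at 2080, 1610, 1620 and 1590 CPM in no-UVB males and 595, 697, 888 and 679 in UVB males. In females it was at 2570, 1760, 1890 and 1280 without UVB and 924, 555, 990 and 979 with it. Groups did not overlap in either sex, and *Krt15* fell by 1.25 (adjusted *p* = 2.56e-05) in males and by 1.11 (0.012) in females, more than any of the 9 genes. It was -1.33 (0.000171) in males without no-UVB males 3 and 4. *Dkk3*, a secreted protein of the bulge, fell by 0.59 (0.000165) in males, and *Sfrp1*, a secreted Wnt inhibitor, by 0.43 (0.0119) in females. The 3 that rose in males were *Vdr*, the vitamin D receptor (0.35, adjusted *p* = 0.00489), *Itga6*, an integrin of basal cells (0.24, 0.0132), and the surface glycoprotein *Cd200* (0.18, 0.0486, and 0.13, 0.194, without no-UVB males 3 and 4), named to complete the count after their values were seen. *Tcf7l1*, a transcriptional repressor of Wnt targets, was the 1 marker of the 15 whose response differed between the sexes in edgeR at the adjusted threshold, and was named after its values were seen (DESeq2 called 1 with a lower and 1 with a higher response in males). It had 37.9 to 41.4 CPM in no-UVB and 23 to 30.6 in UVB males, and 30.8 to 36.3 and 29.6 to 32.7 in females, with a difference of responses of -0.47 (adjusted *p* = 0.0355).

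Of 4 genes of the upper follicle and sebaceous duct, 3 rose in males (4 without no-UVB males 3 and 4) and 1 in females, and none fell in either sex, nor in DESeq2 or at an unadjusted *p* under 0.05. *Krt79*, a keratin of the infundibulum and sebaceous duct, was at 693 to 949 CPM in no-UVB and 1400 to 1660 in UVB males and rose by 0.92 (adjusted *p* = 3.73e-05). *Prdm1*, a repressor found in the sebaceous gland and infundibulum, rose by 0.75 (0.000177) in males and by 0.35 (0.0559) in females, where the call was lost without UVB female 1 or 3 or no-UVB female 3 or 4 (adjusted *p* up to 0.143).

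Of 16 Hedgehog pathway genes besides *Gli1*, 14 had enough counts to be tested; 9 fell in males and 5 in females and none rose, nor did any in DESeq2 or at an unadjusted *p* under 0.05. Among ligand-side genes, *Shh* was nearly absent in every mouse (0 to 0.347 CPM, the highest in no-UVB male 3) and was not tested. *Hhat*, the acyltransferase that lipid-modifies Hedgehog proteins, had 2.38 to 3.55 CPM in no-UVB and 0.903 to 1.60 in UVB males, and 2.29 to 3.01 and 0.976 to 1.33 in females, without overlap. It fell by 1.31 (adjusted *p* = 0.000525) and 1.18 (0.00252) on the log2 scale. The co-receptor *Cdon* fell by 0.85 (3.42e-05) in males and by 0.65 (0.00491) in females. *Ptch1*, receptor and target of the pathway and named here after its values were seen with *Gli2* and *Gli3*, fell by 0.40 (0.000607) and 0.30 (0.053), the latter lost without UVB female 1 or 3 or no-UVB female 2 or 4 (-0.35 to -0.25 over mice left out, adjusted *p* up to 0.134). *Gli3* fell by 0.53 in both sexes (0.00176 and 0.0132) and had -0.32 (0.0176) in males without no-UVB males 3 and 4, and *Gli2* had -0.26 (0.193) and -0.21 (0.427), passing in males under upper quartile scaling (-0.34, 0.0957) and without UVB male 3 (-0.39, 0.0519). Without no-UVB males 3 and 4, 8 of the 14 fell in males.

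**Figure D5:**
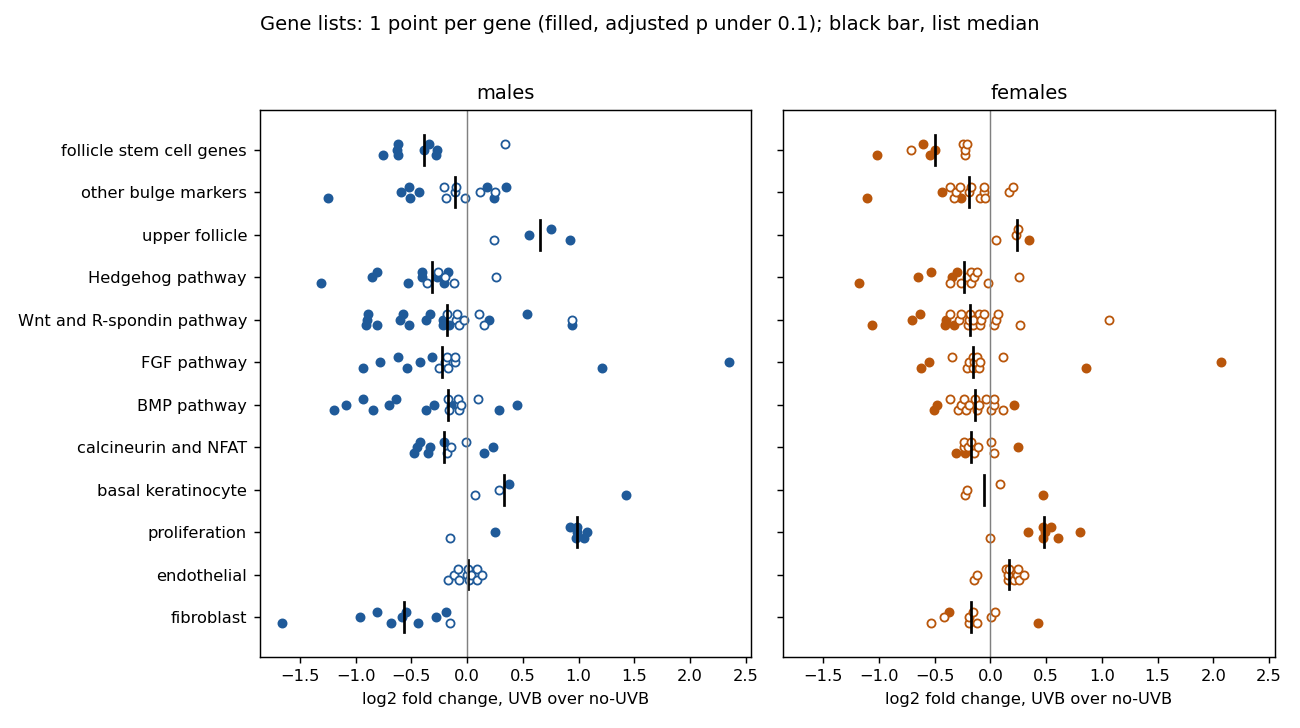
Log2 fold change, UVB over no-UVB, of each tested gene of 12 lists in males (left) and females (right); filled points passed an adjusted *p* of 0.1 in edgeR and black bars are list medians. The medians of the 9 genes (-0.39 and -0.50) and of the Hedgehog list (-0.31 and -0.24) lie below 0, and that of the proliferation list (0.99 and 0.48) above it.

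In the Wnt and R-spondin list 12 of 23 tested genes fell and 3 rose in males, but 7 fell and 6 rose without no-UVB males 3 and 4, where 27.1% of all genes fell and 28.9% rose. In females 6 fell and none rose (none in DESeq2 or by an unadjusted *p* under 0.05). *Wnt10b*, a ligand linked to the start of anagen, had 3.63, 4.37, 7.32 and 6.31 CPM in no-UVB males, highest in the pair with inner root sheath keratins, and 2.43, 2.42, 2.32 and 4.22 in UVB males. It fell by 0.91 (adjusted *p* = 0.0132) in males, a call lost without that pair (-0.45, 0.16), and by 0.70 (0.0256) in females. *Notum*, an enzyme that inactivates Wnts, fell by 0.57 (adjusted *p* = 0.0706) in males, a call lost without no-UVB males 3 and 4 (-0.20, 0.575), and by 1.06 (0.0256; 0.103 in the fit of every gene with a count) in females, from 8.74 to 17 CPM to 4.5 to 9.93. *Wnt4*, a Wnt ligand of the epidermis, rose in males, from 23.1 to 36 CPM to 46.2 to 73.8 (0.94, 0.00172; 1.15, 0.00319, without no-UVB males 3 and 4), with 0.03 (0.884) in females. The difference of responses was 0.90 (adjusted *p* = 0.042), past the threshold in all settings but the fit of every gene with a count (0.103). *Axin2*, a general Wnt target named after its values were seen, had 0.15 (0.219) in males and -0.06 (0.803) in females. It rose in males (0.28, adjusted *p* = 0.0162) without no-UVB males 3 and 4, and without no-UVB male 3 alone (0.27, 0.00755).

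Among 14 tested FGF pathway genes, 6 fell and 2 rose in males (7 and 2 without no-UVB males 3 and 4) and 2 fell and 2 rose in females. *Fgfr2* fell with *Fgf18*, by 0.78 (adjusted *p* = 0.000663) in males and 0.62 (0.00591) in females; it was named for its likeness to *Fgf18*. *Fgf22*, a ligand of the same receptor family, rose from 3.27 to 4.55 CPM to 7.35 to 11 in males (1.21, 1e-04) and from 3.44 to 4.55 to 4.09 to 8.70 in females (0.86, 0.0256). *Etv4*, a transcription factor induced by FGF and other growth factor signals, rose by 2.35 (0.000128) and 2.07 (0.001), from at most 10.8 CPM in no-UVB mice to at least 19.9 in UVB mice.

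Of 17 BMP pathway genes, 9 fell and 2 rose in males (7 and 2 without no-UVB males 3 and 4), and 2 fell and 1 rose in females. *Bmp4*, a ligand from the dermal side of the niche, was at 41.3, 41.1, 29.1 and 23.3 CPM in no-UVB males and 14.6, 12.8, 16.1 and 14.9 in UVB males, a fall of 1.19 (adjusted *p* = 0.000488; -1.45, 3.21e-06, without no-UVB males 3 and 4). In females it had 20.2 to 29.1 CPM without UVB and 16.9 to 25 with it (-0.24, 0.267), and the responses differed by -0.96 (0.0438). *Bmpr1b*, a receptor, fell by 1.09 (0.0036) in males. *Nog*, which binds and blocks BMPs, fell by 0.64 (adjusted *p* = 0.0214) in males, a call lost without no-UVB males 3 and 4 (-0.26, 0.279), and by 0.51 (0.078) in females. *Smad9*, a signal transducer of the pathway, fell by 0.84 (0.00551) in males and by 0.48 (0.0657) in females. In females the call of *Nog* was lost without any 1 of the females other than UVB female 1 and no-UVB female 4 (adjusted *p* up to 0.179), and that of *Smad9* without UVB female 1 or 3 or no-UVB female 2 or 3 (up to 0.15) and after thinning (-0.31, 0.284).

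In the calcineurin and NFAT list, 6 of 11 genes fell and 2 rose in males, also without no-UVB males 3 and 4, and 2 fell and 1 rose in females. The calcineurin subunits *Ppp3cc* (by 0.45, adjusted *p* = 0.00536, in males) and *Ppp3ca* (by 0.42, 0.0016, in males and by 0.31, 0.0541, in females) fell, as did the calcineurin regulator *Rcan2* in males (by 0.48, 0.00418). The female call of *Ppp3ca* was kept only without UVB female 3 or no-UVB female 2 or 4, with an adjusted *p* of up to 0.134 otherwise. *Cdk4*, a cell cycle kinase that *Nfatc1* is known to repress in the bulge, rose by 0.23 (adjusted *p* = 0.00492) in males and by 0.25 (0.0337) in females, from 67.4 to 80.2 CPM to 83.9 to 88 in the latter. The paralogs of *Nfatc1*, named after their values were seen, took different courses in males: *Nfatc2* fell by 0.33 (0.0044), *Nfatc3* rose by 0.15 (0.0298; 0.08, 0.243, under upper quartile scaling) and *Nfatc4* had -0.18 (0.374; 0.09, 0.664, without no-UVB males 3 and 4). In females none of the 3 passed (*Nfatc3* 0.03, or -0.01 under upper quartile scaling). Of 8 proliferation genes 7 rose in each sex (7 in males also without no-UVB males 3 and 4), led by *Mki67* (1.08, 0.00347) in males and the mitotic kinase *Cdk1* (1.05, 0.000381, and 0.80, 0.0021, in females) and the topoisomerase *Top2a* in females (0.61, 0.0187), in RNA of the whole skin.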

How the data were processed

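RNA of whole dorsal skin from 16 mice was sequenced from directional polyA libraries, 1 per mouse. The authors aligned reads to GRCm39 with STAR and deposited its counts of reads per gene, unnormalized. The STAR version and annotation release are not given in the sources used here. The column of the reverse strand was used (3.63 to 4.23% of gene reads lay on the other strand), and the rows that name no gene, 20.78 to 29.92% of reads, were left out. Gene names came from GENCODE M39, which held 54749 of 55359 identifiers.

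Genes were filtered by filterByExpr, scaled by TMM and tested by the robust quasi-likelihood test of edgeR 4.0.16 (limma 3.58.1, R 4.3.3), males and females apart, with Benjamini-Hochberg adjustment over all genes tested. The difference of responses and the sex differences used all 16 mice. The biological coefficient of variation was 0.107 in males and 0.139 in females. Standard errors and 95% intervals are those of the fits, a pair of values in parentheses after a fold change being its standard error and adjusted p, and a single value there, or one that follows a fold change inside parentheses, its adjusted p. The script was tested on simulated data. Likeness used log2 CPM with a prior count of 2. Within groups, pairs of libraries differed beyond sampling noise (chi-square per degree of freedom 10.4 or more). Alternatives used DESeq2 1.42.0, apeglm 1.24.0, other scalings and filters, both strands, thinning, a replicate block and leaving out mice.

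All members are described, with the 2 genes of each other list, in each sex, that had the largest called change and at least 1 CPM, and the 2 genes most like each member; others are said to have been named after their values were seen. Members and lists were chosen with earlier results of these data known. Same-numbered mice are separate animals, and no label ties them.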

Additional observations from a re-analysis of the deposited data

Results flagged for a closer look

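In 3 of the 36 combinations of member and group, 1 mouse stood far from the other 3, which chance alone gives in about 1 of 20 groups. These were *Lgr5* in UVB male 3 at 18.4 CPM, where the others had 13.8 to 14.3, *Lgr6* in the same mouse at 43.6 CPM against 35.7 to 37, and *Gli1* in UVB female 4 at 14.4 CPM against 10.1 to 10.7.

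Among 73 named genes, 8 had a response to UVB that differed between the sexes in edgeR, where 7% of all 17406 genes tested did; these named genes were mostly chosen for a large change within 1 sex, and none of the 9 follicle stem cell genes is among the 8. The difference, male minus female on the log2 scale, was -0.47 (adjusted *p* = 0.0355) for the bulge repressor *Tcf7l1*, 0.90 (0.042, and 0.103 in the fit of every gene with a count) for *Wnt4* and -0.96 (0.0438) for *Bmp4*. For dermal genes it was -1.25 (0.0216) for *Col1a1*, -0.59 (0.0663) for the proteoglycan gene *Lum* and 1.42 (0.0304) for *Crabp1*, a retinoic acid binding protein. It was -0.94 (0.0168) for the muscle creatine kinase *Ckm* and 0.95 (0.0885) for *Krt14*. With 1 mouse left out at a time, the *Krt14* difference ranged from 0.79 to 1.11 and stayed past the threshold in 5 of 16 fits (adjusted *p* up to 0.17), and that of *Lum* ranged from -0.66 to -0.50 and stayed past it in 10 of 16 (up to 0.147).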

How the results depend on the processing

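Fewer cells of the follicle and less RNA per cell cannot be told apart in whole skin, 4 mice a group leave wide intervals for *Sox9* and *Lhx2*, and *Fgf18* and *Gli1* rest on few reads. Of the single values of the members under other settings, 806 kept their direction and side of the threshold, 10 lost and 19 gained a call, and 20 turned direction, none of these past the threshold; for the other named genes the numbers were 1764, 98, 5 and 3. The count of members called ranged from 6 to 8 in males and 4 to 6 in females with 1 mouse left out. In females the 1 member past 1 on the log2 scale (*Fgf18*) became 0 after thinning to the smallest library and 0 with apeglm shrinkage, and 0 to 1 with 1 mouse left out. Members with different responses numbered 0 to 1 with 1 mouse left out (*Cd34* without no-UVB male 3), those differing between no-UVB males and females 0 to 1 (*Lgr5* without no-UVB female 1; *Sox9* without no-UVB female 4 or no-UVB male 3) and those differing after UVB 0.

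Calls of other genes were also lost in the fit of every gene with a count for *Cma1*, *Nog* and *Smad9* in females (adjusted *p* of 0.277, 0.149 and 0.184), *Tchh* and *Tyrp1* in males and the difference of responses of *Krt14* (0.239), and for *Krt14* in females with all 16 mice (0.129). Directions turned for small values. Without no-UVB males 3 and 4 the difference of responses was 0.12 for *Lgr5* and 0.07 for *Nfatc1*, and the male value of *Nfatc4* was 0.09. Upper quartile scaling gave -0.03 for *Lrig1* between UVB males and females and -0.01 for *Nfatc3* in females, and thinning gave -0.05 for *Fgf18* between UVB males and females. With 1 mouse left out the difference of responses ranged from -0.12 to 0.29 for *Lhx2*, -0.13 to 0.06 for *Nfatc1* and -0.05 to 0.24 for *Gli1*. The difference between UVB males and females ranged from -0.20 to 0.06 for *Lgr6*, -0.05 to 0.08 for *Lrig1* and -0.05 to 0.31 for *Fgf18*, and *Axin2* in females from -0.18 to 0.06. The cause was not tested.

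With the replicate number as a block, 8 members were called in males, 4 in females and 0 in the other comparisons, as without it. Deviations of same-numbered mice correlated at -0.07 to 0.02 in males and -0.11 to 0.22 in females. Mice with different numbers had -0.16 to 0.19 in males and -0.19 to 0.26 in females. These values show no sign of pairing, but with 4 pairs in each sex they cannot exclude one.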
